A study of Mus musculus and Homo sapiens with 14 samples.

Results

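The genes of complement C3 (C3), the receptors for its fragment C3a (C3ar1) and for C5a (C5ar1), properdin (Cfp) and the membrane inhibitor CD59 (Cd59a) were followed across leukemia cells in which Sik3 or Mef2c was knocked out or the salt-inducible kinases were inhibited. They are 5 genes of 20682 in each mouse table and 5 of 19166 in the human table, matched by symbol, with Cd59a read as CD59 in human cells. They were chosen with the knockout results in view, so their changes in sgSik3 and sgMef2c cells are given as a description with no test. The members are tested in the drug comparisons, and other complement genes in all comparisons. The lists of those other genes were also chosen with earlier results of these data known.

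Messenger RNA was sequenced in bulk in 14 libraries, 7 groups of 2. RN2c cells, a mouse MLL-AF9 leukemia with mutant Nras that also expresses Cas9, received a guide RNA against Sik3 (guides e1 and e3), against Mef2c (guides 1 and 2) or against the Rosa26 locus as control (sgRosa26, libraries 1 and 2), and RNA was taken at day 2 after infection with the guide. RN2 cells, the same leukemia without Cas9, were treated with 350 nM of YKL-05-099, which inhibits salt-inducible kinases, or with 0.1% DMSO. MOLM-13 cells, a human leukemia line with an MLL-AF9 fusion, were given YKL-05-099 at 250 nM, or 0.1% DMSO. Drug treatment lasted 2 hours, and the labels of all RN2 and MOLM-13 libraries name an empty vector or carry the word empty. All groups share an MLL-AF9 leukemia background, which limits them as models of other leukemias. The labels do not tell whether replicate libraries of the sgRosa26, drug and DMSO groups are separate cultures, so their spread may be technical. The libraries of each knockout carry different guides, so their spread also holds differences between guides. The p-values reflect these unlike spreads.

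Complement is a cascade of plasma proteins in which C3 is the central component. Its cleavage yields C3b, which coats surfaces, and C3a, which signals through the receptor encoded by C3ar1. Properdin stabilises the convertase of the alternative pathway, C5a signals through C5aR1, and CD59 blocks assembly of the membrane attack complex on the cell's own surface. Most plasma C3 comes from the liver, but myeloid cells also make C3, and neutrophils store and release properdin.

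The 250 bases before and 50 bases after each gene's RefSeq start were read (GRCm38.p6) for all 5 mouse genes, written 5′ to 3′ on the gene's strand. The windows of the 3 genes with the largest differences in the knockouts are shown, with matches to the C/EBP pattern TTNNGNAA in capitals. The C3 window lies at chr17:57228087-57228386, the C5ar1 window at chr7:16259289-16259588 and the C3ar1 window at chr6:122856108-122856407, all on the minus strand. The RefSeq start used for C5ar1 lies inside the gene as drawn in GENCODE M21 (chr7:16246743-16259540). Much of the C5ar1 sequence before that start is therefore within the GENCODE gene.
C3: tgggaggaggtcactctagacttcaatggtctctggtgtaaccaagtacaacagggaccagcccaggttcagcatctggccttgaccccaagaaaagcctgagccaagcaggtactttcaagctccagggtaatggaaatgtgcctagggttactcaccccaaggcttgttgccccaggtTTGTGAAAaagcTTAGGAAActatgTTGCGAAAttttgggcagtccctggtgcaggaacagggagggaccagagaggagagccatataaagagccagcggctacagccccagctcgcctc
C5ar1: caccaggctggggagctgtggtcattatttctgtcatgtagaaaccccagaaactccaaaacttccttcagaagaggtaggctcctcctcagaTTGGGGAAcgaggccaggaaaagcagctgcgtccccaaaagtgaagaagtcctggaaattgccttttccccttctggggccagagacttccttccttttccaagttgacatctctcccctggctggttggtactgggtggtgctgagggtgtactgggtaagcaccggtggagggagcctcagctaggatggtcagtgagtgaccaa
C3ar1: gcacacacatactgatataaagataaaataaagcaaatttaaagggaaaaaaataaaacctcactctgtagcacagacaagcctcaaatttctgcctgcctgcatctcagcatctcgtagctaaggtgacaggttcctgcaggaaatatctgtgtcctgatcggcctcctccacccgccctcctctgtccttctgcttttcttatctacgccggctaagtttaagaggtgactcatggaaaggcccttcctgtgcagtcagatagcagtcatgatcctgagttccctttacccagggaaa
The C3 window held the C/EBP pattern at 3 positions, TTGTGAAA, TTAGGAAA and TTGCGAAA, the last of which reads as a match on both strands, with their first bases at -70, -58 and -45 from the start. The C5ar1 window held it at 1 position, TTGGGGAA at -157 from the RefSeq start, which is within the GENCODE gene. The C3ar1, Cfp and Cd59a windows held no match. Of all 32851 mouse windows searched on both strands, 40.7% held the pattern and 3.6% held it at 3 or more positions. The cutoff of 3 is the number found in C3 and was not planned, and such a share was computed for no other pattern. The NF-kB pattern, GGG and CC with any 5 bases between them, present in 50.8% of all windows, matched in every member's window except that of C5ar1. In the C3 window it also stood at several positions, with first bases at -197, -196, -33 and -10, where the matches at -197 and -196 overlap. The patterns for PU.1 (GAGGAAG, 13.6% of all windows), for the cyclic AMP response element (TGACGTCA, 1.79%), for its TGACG part (20.8%) and for MEF2 (CTA and TAG with any 4 bases between them, 3.69%) had no match in the 5 windows. The TGACG letters lie within TGACGTCA, so these patterns overlap. A match is a description of the letters and does not show that a factor binds there.

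**Figure D1:**
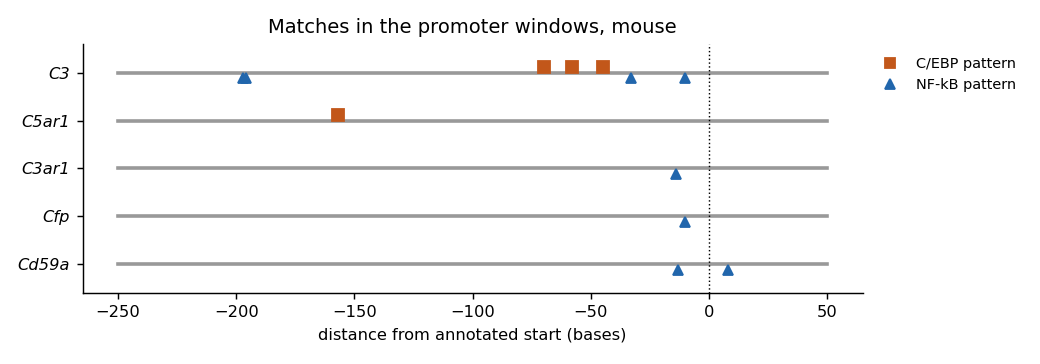
Matches to the searched letter patterns in the promoter windows of the 5 mouse genes, by distance in bases from the gene's RefSeq start. The C/EBP pattern stands at 3 positions in C3 and at 1 in C5ar1. The NF-kB pattern is found at more than 1 position in C3 and Cd59a, and also in C3ar1 and Cfp.

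The mouse C3 gene lies at chr17:57203970-57228136 on the minus strand (GRCm38, GENCODE M21). Of the members, C3 had the largest difference in level in both knockouts. It had 17388 and 16278 normalized counts (reads divided by the authors' library size factor) with sgSik3 guides e1 and e3, against 3272 and 4339 in sgRosa26 cells. In the separately normalized sgMef2c table it had 15188 and 21155 normalized counts with guides 1 and 2, against 3439 and 4549 in the same sgRosa26 libraries. Both guides of each knockout lay above both controls, with no overlap. The difference was 2.16 on the log2(value + 1) scale with sgSik3 (SE 0.10, 4.42-fold) and 2.18 with sgMef2c (SE 0.17, 4.55-fold). These comparisons share their sgRosa26 libraries, in which the recovered reads were the same in both tables (0 genes differed).

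Of the receptor genes, C5ar1 (chr7:16246743-16259540) was higher and C3ar1 (chr6:122847138-122856161) lower in both knockouts. C5ar1 had 113.8 and 109.2 normalized counts in sgSik3 cells, against 38.6 and 64.8 in sgRosa26 cells, a log2 difference of 1.14 (SE 0.23, 2.16-fold). In sgMef2c cells it had 89.5 and 135.7, against 40.5 and 68.0 in sgRosa26 cells, a log2 difference of 1.06 (SE 0.29, 2.08-fold). The groups did not overlap, though the sgRosa26 libraries themselves differed by more than the sgSik3 libraries did. C3ar1 had 34.1 and 30.6 normalized counts in sgSik3 cells, against 76.2 and 94.7 in sgRosa26 cells, a log2 difference of -1.37 (SE 0.20). In sgMef2c cells it had 23.3 and 23.7, against 80.1 and 99.3 in sgRosa26 cells, a log2 difference of -1.88 (SE 0.20). Its knockout libraries thus lay below both controls with every guide, on 22 to 35 recovered reads against 81 and 95.

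Cfp (chrX:20925454-20931555) had 8865 and 8730 normalized counts in sgSik3 cells, against 7087 and 7585 in sgRosa26 cells, a log2 difference of 0.26 (SE 0.04). In sgMef2c cells it had 7498 and 7670, against 7450 and 7952 in sgRosa26 cells, a log2 difference of -0.02 (SE 0.04), and these groups overlapped. Cd59a (chr2:104095801-104115354, plus strand) was close to the limit of detection, with 4 and 3 reads in sgSik3, 3 and 1 in sgMef2c and 2 and 9 in sgRosa26 libraries. Its mean was under 10 in every mouse table, so it was not tested, and the difference between its groups was not detectable at this depth. Mouse Cd59b, a near copy of Cd59a, was listed at a few reads, and reads of these copies may not be told apart.

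Of the 4 members with a mean of at least 10, 3 stood higher and 1 lower in sgSik3 cells with groups that did not overlap, where 37.4 percent of all 10934 tested genes stood higher and 37.8 percent lower without overlap. In sgMef2c cells 2 stood higher and 1 lower, where 35.5 percent of 10956 genes stood higher and 35.0 percent lower. These shares are given only as background, since the members were chosen on these comparisons.

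**Figure D2:**
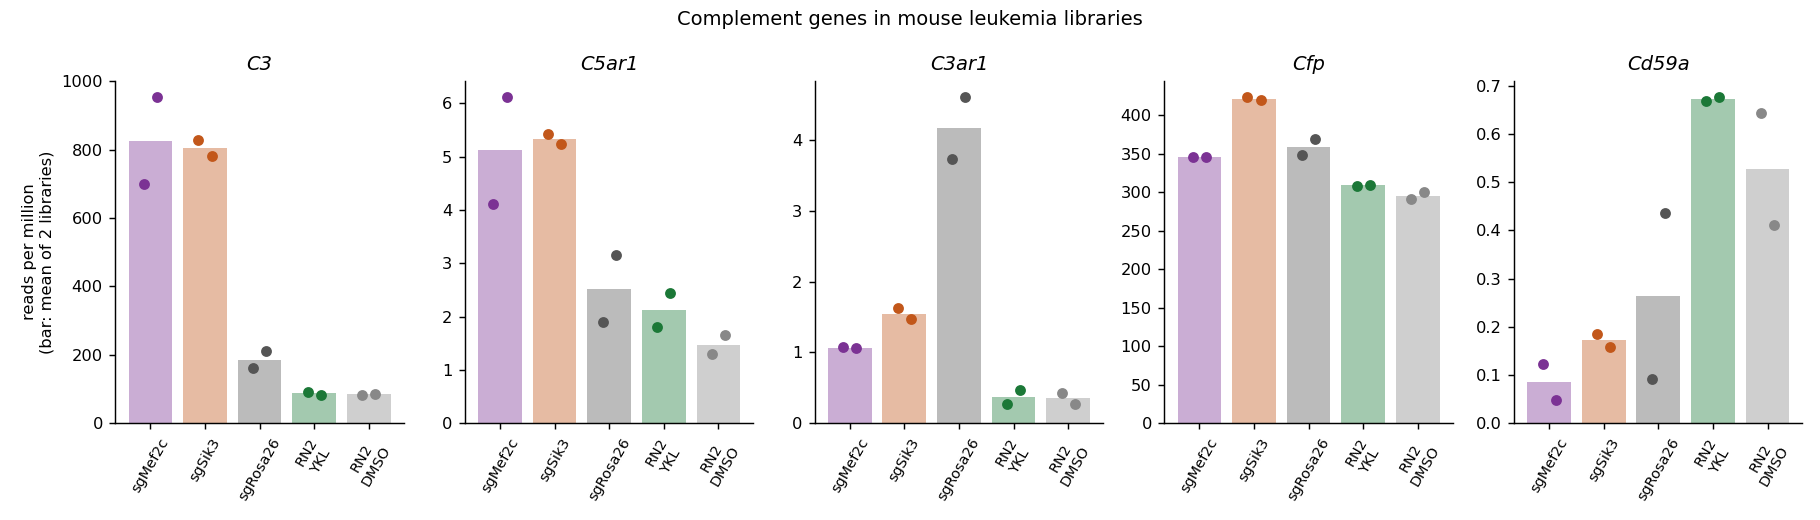
Level of the 5 genes in mouse leukemia libraries as CPM (reads scaled to the library's total), with points for libraries and bars for the mean of 2, each panel on its own axis. C3 stands at 699 to 953 CPM in the knockouts, against 161 and 211 in sgRosa26 cells, while C3ar1 stands highest in sgRosa26 cells.

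The sgSik3 libraries had less Sik3 (log2 difference -0.68, adjusted p = 5.7e-06 by limma) and the sgMef2c libraries less Mef2c (-1.08, adjusted p = 8.0e-05 by limma) than sgRosa26, in the direction of their labels. The recovered totals were 19065348 to 24275290 reads for RN2c, 13961461 to 14943682 for RN2 and 16859820 to 22609627 for MOLM-13 libraries. All 10 leukemia identity genes listed, among them Ptprc, Spi1 and Meis1, had a mean of at least 10 in every group. Of 20 markers of other cell types in mouse, 17 had a mean under 10 in each group, and Cd3e, Ms4a1, Hba-a1 and Alb were at 0 in all mouse groups. The other 3 were Cpa3 and Mcpt8, proteases of mast cells and basophils, and Pecam1, an endothelial marker that blood cells also carry. Cpa3 fell to 336.2 ± 18.6 normalized counts in sgSik3 cells, against 1081 ± 660 in sgRosa26 cells (log2 difference -1.53, adjusted p = 0.0040 by limma), and to 228.5 ± 94.7 in sgMef2c cells, against 1134 ± 691 in sgRosa26 cells (-2.22, adjusted p = 0.0089 by limma; SD, n = 2 each). Pecam1 fell in sgMef2c cells (6212 ± 49.9, against 7250 ± 101 in sgRosa26 cells, -0.22, adjusted p = 0.0048 by limma) and did not pass in sgSik3 cells (0.03), and Mcpt8 did not pass in sgSik3 (0.15) or sgMef2c cells (-0.12). The summed level of the 20 markers was 7613 to 7689 in sgSik3 cells, against 7659 to 8800 in sgRosa26 cells, and 6623 to 6727 in sgMef2c cells, against 8051 to 9226 in sgRosa26 cells. Most of this sum was Pecam1, with a mean of 6977 in the sgSik3 comparison and 6731 in the sgMef2c comparison. Granulocyte markers moved with the knockouts: 12 of 12 rose in sgSik3 cells, their summed normalized counts being 142080 to 152854, against 49454 to 54328 in sgRosa26. In sgMef2c cells 11 of 12 rose, with sums of 147251 to 236156, against 51984 to 56959 in sgRosa26. Of 12 monocyte and macrophage markers, 9 were tested. Most of the summed counts of these 12 was Ly6c2, which rose in both knockouts. Its mean was 34555 in the sgSik3 comparison and 36784 in the sgMef2c comparison. In sgSik3 cells 2 rose and 5 fell, with sums of 47027 to 49939, against 46447 to 47791 in sgRosa26. In sgMef2c cells 1 rose and 6 fell, with sums of 47366 to 51978, against 48823 to 50106 in sgRosa26. Beside these counts, 23.9 percent of all tested genes rose and 23.9 percent fell in sgSik3 cells by limma. In sgMef2c cells 16.3 percent rose and 15.1 percent fell. The part of these markers in the complement results was not tested, and in bulk RNA fewer cells of a type and less RNA per cell cannot be told apart.

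The knockouts were set directly against each other on recovered reads of the 6 RN2c libraries, in CPM scaled by TMM factors. The members were chosen on values that make up this contrast, so their differences are a description with no test. The log2 differences come from edgeR. The SEs come from a separate limma fit on log2 CPM, whose own differences can depart from these at low counts. Cfp had 345.1 and 351.4 CPM in sgMef2c cells, against 427.6 and 421.5 CPM in sgSik3 cells, a log2 difference of -0.29 (SE 0.04 by limma). The Cfp groups did not overlap. C3 had 699.1 and 969.1 CPM in sgMef2c cells, against 838.7 and 786.0 CPM in sgSik3 cells, and these groups overlapped (log2 difference 0.03, SE 0.15). C5ar1 had 4.12 and 6.22 CPM in sgMef2c cells, against 5.49 and 5.27 CPM in sgSik3 cells, and overlapped as well (-0.08, SE 0.25). C3ar1 had 1.07 and 1.09 CPM in sgMef2c cells, against 1.64 and 1.48 CPM in sgSik3 cells, without overlap (-0.54, SE 0.21). Of 15 other complement genes tested in this contrast, 1 was higher and 5 were lower in sgMef2c cells (edgeR quasi-likelihood test, Benjamini-Hochberg adjusted p under 0.05), where 3.70 percent of all 10954 genes were higher and 5.74 percent lower.

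**Figure D3:**
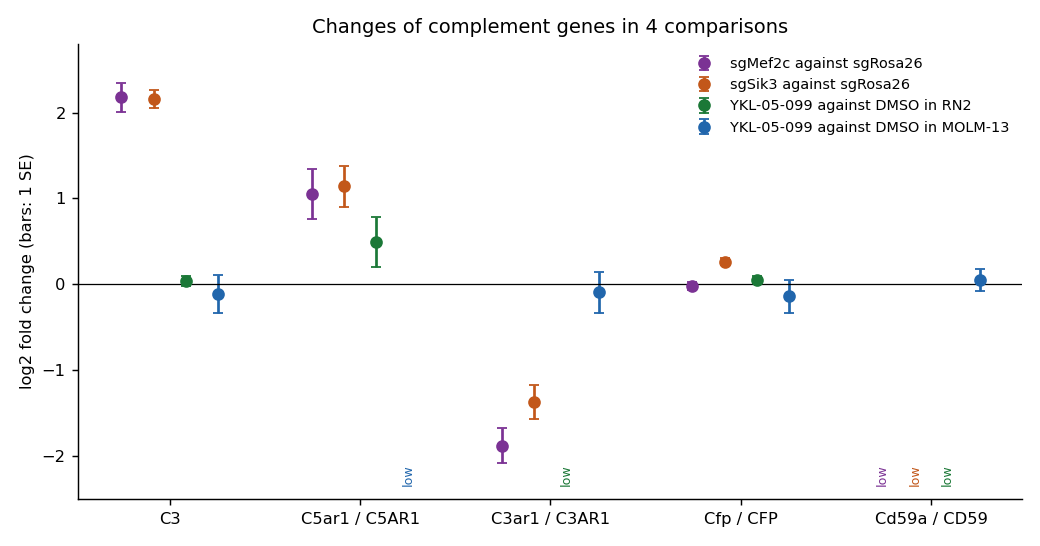
Log2 difference and its standard error for the 5 genes in the 4 comparisons, as knockout over sgRosa26 or drug over DMSO. Genes with a mean under 10 are marked low and were not tested. C3 stands at 2.16 and 2.18 in the knockouts and at 0.04 and -0.12 with the drug.

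With YKL-05-099 for 2 hours, no member passed the test in RN2 or in MOLM-13 cells. In RN2 cells C3 had 1317 and 1208 normalized counts with the drug, against 1212 and 1246 with DMSO, a log2 difference of 0.04 (SE 0.06, adjusted p = 0.93 by limma). C5ar1 had 26.2 and 35.2 with the drug, against 18.9 and 24.0 with DMSO (0.49, SE 0.29, adjusted p = 0.78 by limma). Cfp had 4481 and 4472 with the drug, against 4258 and 4371 with DMSO (0.05, SE 0.04, adjusted p = 0.84 by limma). The groups of C5ar1 and Cfp did not overlap, which held for 18.1 percent of all tested genes in that direction, while the C3 groups overlapped. C3ar1 stood on 4 and 7 reads with the drug, against 6 and 4 with DMSO, and Cd59a on 10 and 10, against 9 and 6, so neither was tested. Of the 3 members tested 0 passed, and 0 did so at an unadjusted p under 0.05 or with edgeR or DESeq2, where limma called 0.317 percent of 10732 genes.

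In MOLM-13 cells C3 had 61.4 and 49.7 normalized counts under the drug, against 57.7 and 62.4 with DMSO (log2 difference -0.12, SE 0.22). C3AR1 had 73.0 and 92.7 with the drug, against 74.4 and 103.5 with DMSO (-0.09, SE 0.24). CFP had 135.6 and 178.6 with the drug, against 159.3 and 184.8 with DMSO (-0.14, SE 0.19). CD59 had 406.7 and 384.0 with the drug, against 404.6 and 360.1 with DMSO (0.05, SE 0.13). The groups overlapped for each of these 4, where 21.2 percent of all genes had groups apart, and their adjusted p was 0.9999 by limma. C5AR1 had only 9 and 4 reads with the drug, against 3 and 2 with DMSO, and was not tested. Of the 4 members tested 0 passed with limma, edgeR or DESeq2 and 0 had an unadjusted p under 0.05, where limma called 0 percent of 11361 genes (144 at an unadjusted p under 0.05). These fits ignore the replicate numbers, though same-numbered MOLM-13 libraries deviated together (correlation 0.53 over 11361 genes). A limma fit with a replicate block called no member either.

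Across the 5 mouse groups, the order of C3 by CPM was 826 ± 180 in sgMef2c, 806 ± 33.7 in sgSik3, 186 ± 35.7 in sgRosa26, 87.1 ± 5.0 in RN2 with the drug and 84.2 ± 2.01 in RN2 with DMSO (SD, n = 2 each). The knockouts overlapped each other, as did the drug and DMSO libraries, while the other neighbours were apart. For C3ar1 the order was 4.18 ± 0.615 in sgRosa26, 1.55 ± 0.111 in sgSik3, 1.07 ± 0.00246 in sgMef2c, 0.371 ± 0.146 in RN2 with the drug and 0.352 ± 0.110 in RN2 with DMSO, and the last pair overlapped. RN2 and RN2c cells differ in Cas9 and in handling, so differences between them were not tested. Compared per length of merged exons (GENCODE M21), Cfp was the most abundant member in every mouse group. It stood at 199 CPM per kilobase in sgMef2c, 243 in sgSik3 and 207 in sgRosa26 cells. On this scale C3 stood at 161 in sgMef2c, 157 in sgSik3 and 36.1 in sgRosa26 cells. C5ar1 stood at 1.99 in sgMef2c, 2.08 in sgSik3 and 0.982 in sgRosa26 cells, and C3ar1 at 0.248 in sgMef2c, 0.359 in sgSik3 and 0.970 in sgRosa26 cells.

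Around these genes, 52 other complement genes had rows in mouse tables: components, regulators and receptors. In sgSik3 cells 15 of them were tested, 5 rose and 3 fell by limma, where 23.9 percent of all genes rose and 23.9 percent fell. Their median log2 difference was 0.005, beside -0.0005 over all genes. Of the components, C1rl, a C1r-like protease, rose (288.9 ± 5.62 normalized counts in sgSik3 cells and 97.1 ± 10.4 in sgRosa26 cells, SD, n = 2 each, log2 difference 1.57, adjusted p = 1.3e-05 by limma). Fcnb, a ficolin of the lectin pathway, rose as well (219.8 ± 22.1 in sgSik3 cells and 95.7 ± 16.96 in sgRosa26 cells, 1.20, adjusted p = 0.00022 by limma). Among the receptors, both chains of complement receptor 3 rose. Itgam had 31450 ± 230 in sgSik3 cells and 20021 ± 966 in sgRosa26 cells (0.65, adjusted p = 2.9e-06 by limma), and Itgb2 had 24484 ± 176 in sgSik3 cells and 13891 ± 1292 in sgRosa26 cells (0.82, adjusted p = 5.2e-06 by limma). C5ar2, the other C5a receptor and the neighbour of C5ar1 on chromosome 7, was named after its values were seen because its mean is under 50. It had 51.4 ± 1.64 in sgSik3 cells and 16.5 ± 0.680 in sgRosa26 cells (1.58, adjusted p = 0.00059 by limma).

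Of the 7 genes of the receptor list tested in sgSik3 cells, 3 rose, as above, and 3 fell. C1qbp, a C1q-binding protein, had 2873 ± 3.69 normalized counts in sgSik3 cells and 4621 ± 24.9 in sgRosa26 cells (-0.69, adjusted p = 1.2e-06 by limma), and Lrp1, a scavenger receptor that binds C1q, had 1103 ± 113 in sgSik3 cells and 1810 ± 32.3 in sgRosa26 cells (-0.72, adjusted p = 3.3e-05 by limma). Cd93, once described as a C1q receptor, had 7750 ± 135 in sgSik3 cells and 8948 ± 877 in sgRosa26 cells (-0.20, adjusted p = 0.016 by limma). The Cd93 call was lost without sgSik3 guide e1 (adjusted p = 0.11) or e3 (adjusted p = 0.062), and with the limma fit that had no mean-variance trend (adjusted p = 0.14). Not past the test were Itgax, a chain of complement receptor 4 (0.04), the components C8g (0.35), Cfb (-0.26) and Cfd (0.005), and the regulators Cr1l (-0.14) and Cd46 (-0.78). Mouse Cd55 was at 0 in all libraries.

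In sgMef2c cells 15 of these genes were tested, 4 rose and 4 fell by limma, where 16.3 percent of all genes rose and 15.1 percent fell, and their median log2 difference was 0.01. C1rl had 315.0 ± 54.2 normalized counts in sgMef2c cells and 101.9 ± 11.1 in sgRosa26 cells (1.61, adjusted p = 0.00070 by limma). Itgb2 had 25459 ± 3215 in sgMef2c cells and 14582 ± 1330 in sgRosa26 cells (0.80, adjusted p = 0.0013 by limma). C5ar2, again outside the naming rule, had 70.7 ± 18.9 in sgMef2c cells and 17.3 ± 0.682 in sgRosa26 cells (1.94, adjusted p = 0.0021 by limma). Itgam had 26408 ± 2791 in sgMef2c cells and 21018 ± 976 in sgRosa26 cells (0.33, adjusted p = 0.016 by limma). The Itgam call was lost without sgRosa26 library 1 (0.28, adjusted p = 0.082) and without the trend (adjusted p = 0.096). Those that fell were Lrp1 (-1.17, adjusted p = 0.00095), Itgax (-0.90, adjusted p = 0.0061), Cd93 (-0.70, adjusted p = 0.0011) and C1qbp (-0.40, adjusted p = 0.0028), all by limma. Fcnb did not pass, at 109.3 ± 11.4 in sgMef2c cells and 100.5 ± 17.6 in sgRosa26 cells (0.13, adjusted p = 0.61 by limma). Cr1l (-0.10), C8g (0.16), Cfb (0.01) and Cd46 (0.10) did not pass either.

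**Figure D4:**
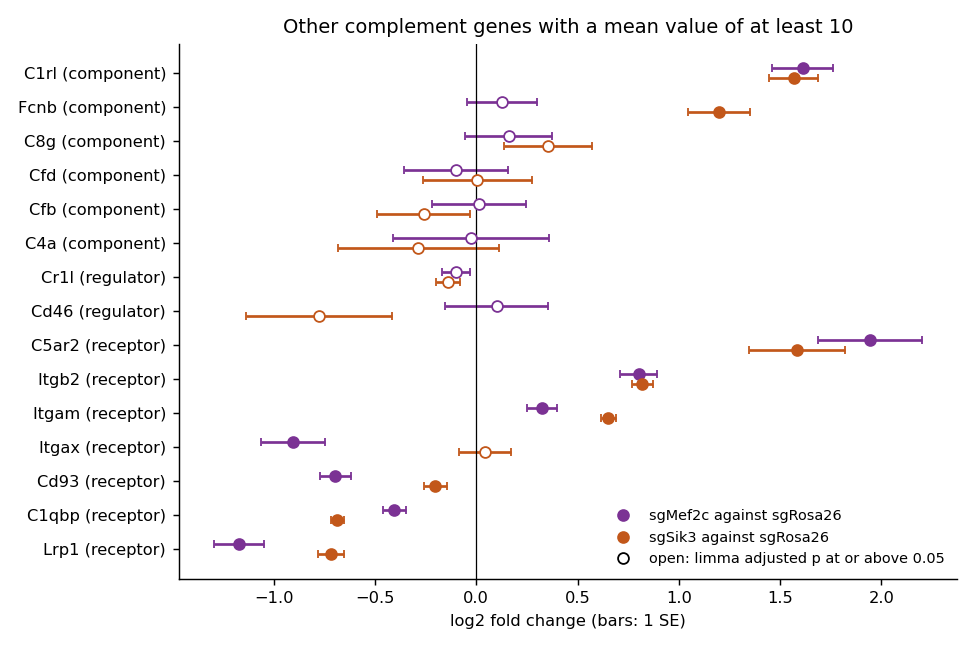
Log2 differences of the other complement genes in the knockouts against sgRosa26, grouped as components, regulators and receptors. Filled points passed the limma test at an adjusted p under 0.05 and open points did not. Filled in both knockouts are C1rl, C5ar2, Itgb2 and Itgam on the higher side and C1qbp, Lrp1 and Cd93 on the lower side.

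With YKL-05-099, 0 of 12 tested complement genes of these lists passed in RN2 cells with limma, edgeR or DESeq2, and 1 had an unadjusted p under 0.05 in limma. Of the components of highest mean, C1rl had 75.0 ± 3.04 normalized counts with the drug and 58.4 ± 0.907 with DMSO (0.36, adjusted p = 0.72 by limma), and Fcnb (-0.37) and Cfb (0.18) did not pass either. Of the others, the regulators Cr1l (-0.01) and Cd46 (-0.02) and the receptors Itgam (0.03), Itgb2 (0.06) and Cd93 (-0.06) did not pass. In MOLM-13 cells 0 of 14 passed with limma, edgeR or DESeq2, and 0 had an unadjusted p under 0.05. CFD, which encodes factor D of the alternative pathway, had 6122 ± 1557 normalized counts with the drug and 6433 ± 1093 with DMSO (-0.08). The other components named, C1RL (0.00) and C5 (0.01), did not pass. CD46 stood at 2434 ± 116 with the drug and 2346 ± 24.2 with DMSO (0.05), and CD55 at 549.2 ± 54.1 with the drug and 483.8 ± 118 with DMSO (0.20). Of the receptors, C1QBP (0.03), ITGB2 (0.02) and CD93 (0.17) did not pass in these fits. A limma fit with a replicate block did call CD93 (adjusted p = 0.012), though the replicate numbers do not establish a pairing.

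The genes whose pattern was most like a member were ranked by Pearson's r of log2(CPM + 1) over the 6 RN2c libraries, among genes with a mean of at least 50 reads, as a description with no test, since these libraries share the contrast of knockouts and controls. For C3 they were Acpp (0.9995), Sla (0.9994) and Ces1d (0.9990), and 9.29% of 9616 genes had an r over 0.95. For C5ar1 they included Ndfip2 (0.997) and Ormdl1 (0.996). For C3ar1 they were Trmt10a (0.996), Ubash3a (0.994) and St3gal1 (0.994), and for Cfp they were Slc25a36 (0.995), Csf2rb (0.993) and Yipf4 (0.990). For Cd59a, on 1 to 9 reads a library, the ranking gave Otogl, Klrb1f and Fut8.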

How the data were processed

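PolyA RNA was sequenced in bulk. Reads were handled with HISAT2, featureCounts and DESeq2 on hg19 and mm10, per the submitters' processing notes. Versions: not given in the sources used here. In the 4 deposited tables each value is a signal equal to a gene's read count over its library's size factor, normalized separately for each comparison. Dividing by the value of 1 read gave whole reads for 100 percent of values (largest deviation 6.1e-10 reads).

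Genes with a mean of at least 10 were tested with limma 3.58.1 (two-sided, mean-variance trend) on log2(value + 1), run under R 4.3.3, followed by Benjamini-Hochberg adjustment over all tested genes at a threshold of 0.05. This scale understates the change of low genes. For complement genes other than the members, the knockouts were compared directly with edgeR 4.0.16 on recovered reads with TMM factors, genes of a mean of at least 10 reads. Contrasts among knockouts and sgRosa26 give no test for the members, whose choice used them. Alternatives were DESeq2 1.42.0 and edgeR on recovered reads, TMM factors, a pseudocount of 5, no filter, a replicate block, each library left out and, chosen after seeing the data, limma without the trend. The limma and edgeR fits of the 4 tables were tested on simulated data.

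The members and lists were chosen with earlier results of these data known. Besides the members, complement genes past the test with a mean of at least 50 were named, and up to 3 per list with the highest means of those not past. No pair of replicate libraries agreed within sampling noise (chi-square over degrees of freedom 1.74 to 15.1), so none was treated as a duplicate deposit, which does not show that they are separate cultures.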

Additional observations from a re-analysis of the deposited data

Results flagged for a closer look

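The direct edgeR test found a difference between the sgMef2c and sgSik3 libraries for 6 of 15 complement genes tested outside the members, 1 higher and 5 lower in sgMef2c cells, where 3.70 percent of all 10954 genes were higher and 5.74 percent lower. The difference, sgMef2c minus sgSik3 on the log2 scale, was -1.08 for Fcnb (adjusted p = 0.0032), -0.95 for Itgax (adjusted p = 0.0054), -0.50 for Cd93 (adjusted p = 0.0035), -0.44 for Lrp1 (adjusted p = 0.047) and -0.33 for Itgam (adjusted p = 0.012). C1qbp was higher in sgMef2c cells by 0.28 (adjusted p = 0.015). Each of the 6 calls was lost without sgSik3 guide e1 and without guide e3, where the number of genes called over the whole table fell to 50, against 1034 with all libraries. The Lrp1 call was also lost with DESeq2 and without sgMef2c guide 2.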

How the results depend on the processing

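No difference past its test changed direction under an alternative. Small differences that had no call changed sign, among them C3 between the knockouts (-0.22 to 0.25 with a library left out) and Cfp in sgMef2c cells (-0.07 to 0.03). The 77 alternatives of the members' drug tests gave no call, as in the results above. The members' knockout values carry no test, and 120 of 120 alternatives moved them by less than the largest SD within a group. In limma fits with 2 libraries in a group, leaving a library out moves the mean by less than that SD whatever the values. Dropping the filter or the trend leaves the difference unchanged, so this count does not measure stability. The Cfp difference between the knockouts was -0.30 to -0.28 with a library left out. Of 222 alternatives for other complement genes, 203 kept their call and 19 lost it. The sgSik3 count of 5226 genes called stayed within 1.5 times under all 10 alternatives. The sgMef2c count of 3442 was 2255 with DESeq2, 1628 without the trend and 1815 to 3138 with a library left out. The RN2 count of 34 was 3 with no filter, 0 without the trend and 28 to 321 with a library left out. The MOLM-13 count of 0 was 0 with edgeR, 7 with DESeq2 and 14 to 20 with a library left out. The count of 1034 genes that differed between the knockouts was 606 with DESeq2 and 50 to 1152 with a library left out. The cause of these changes was not tested.

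A fit with a replicate block called 499 genes in RN2 and 290 in MOLM-13, including 1 complement gene, CD93, at 0.17 (adjusted p = 0.012 by limma). Same-numbered libraries deviated together with correlations of 0.05 for sgMef2c, 0.22 for RN2 and 0.53 for MOLM-13, and with 2 pairs the numbers do not establish a pairing. The block changed no member's call in the drug comparisons. For sgSik3 no block could be fitted, since its guides share no numbers with sgRosa26. Each group had 2 libraries, a lone library left after leaving one out was assumed to vary like the others, and the members with few reads, Cd59a in every mouse group, C3ar1 in RN2 and C5AR1 in MOLM-13, could not be compared at this depth.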
